A study of Mus musculus with 16 samples.

Results

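The gene expression difference made by an antibody against PD-1, averaged over the absence and presence of cabozantinib, was measured in subcutaneous Hepa1-6 tumours of mice. It is the mean of the AntiPD1 and Combination group means minus the mean of the Placebo and Cabozantinib group means, so that 7 tumours given the antibody were set against 9 given none. All 16 of the 16 tumours of the series entered, chosen by their treatment label alone. Hepa1-6 is a single mouse hepatoma cell line. In male C57BL/6 mice aged 5 weeks, these cells were implanted in 50% Matrigel in the flank, not in the liver. These hosts carry no immune deficiency that the labels name. Treatment began at a tumour volume of 200 to 300 mm3, and tumours were taken on day 14.

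The Placebo group (4 tumours) received hamster IgG at 10 mg/kg into the peritoneum, 5 doses with 3 days between doses. The AntiPD1 group (3 tumours) received J43, a hamster antibody to mouse PD-1, at the same dose and schedule. The Cabozantinib group (5 tumours) received cabozantinib at 30 mg/kg by mouth each day, and the Combination group (4 tumours) received cabozantinib and J43. No IgG is named for the Cabozantinib tumours, so the second stratum may compare J43 with IgG or with no antibody. PD-1 is an inhibitory receptor that activated T cells carry. Its ligands, PD-L1 and PD-L2, are displayed by tumour cells and by myeloid cells, and their binding dampens signalling from the T cell receptor. Antibodies that block PD-1 release this brake, and cabozantinib is an oral inhibitor of several receptor tyrosine kinases, among them VEGF receptors, MET and AXL.

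Each tumour gave 1 Affymetrix array, on which signal is in log2 units, and 17097 genes were tested, each through 1 probe set. A difference of 1 is a doubling. Differences are given ± SE from limma's fit of the 4 group means, adjusted p is Benjamini-Hochberg over the 17097 genes, and a gene "rose" or "fell" where adjusted p was under 0.05. The array medians ran from 4.92 to 5.13, and no measure of array quality differed with the antibody after adjustment over 5 measures. The smallest was the 3' minus 5' signal of Actb, which averaged 0.03 lower with the antibody (two-sided exact permutation test within strata over 4410 relabellings, p = 0.0474, adjusted p = 0.237), and which ran from 0.410 to 0.468 over the 7 antibody tumours and from 0.427 to 0.539 over the 9 others. The hepatocyte gene Alb was present in every tumour, at 12.8 to 13.2. The labels do not say more of the replicates than that tumours came from mice assigned at random, and p-values measure the spread between these tumours.

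With the antibody, 1424 genes rose (8.33% of those tested) and 1651 fell (9.66%), 18% in all. The rises were the larger changes. Of the genes that rose, 382 did so by at least 2-fold, with a median difference of 0.65, while 11 of the genes that fell did so by at least 2-fold, with a median of -0.33. The median over all genes was -0.03. Macrophage, fibroblast, endothelial, chemokine and complement genes were prominent among the rises, and cholesterol synthesis genes among the falls. When each array was first centred on its median over the 17097 genes, the split changed to 1074 higher and 3439 lower. This centring moved the median difference over all genes from -0.03 to -0.15. The median used there is not the array median given above, which was taken over all probe sets and averaged 0.03 higher with the antibody.

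The averaging over strata carried most of these calls. Within the tumours without cabozantinib, AntiPD1 minus Placebo, 5 genes passed (0.0292% of those tested). The 3 rises (0.0175%) were Esm1, Chga and Ptn. The 2 falls (0.0117%) were Hsd17b7 and Clcn3, a chloride-proton exchanger (-0.48 ± 0.07, adjusted p = 0.0469), which is named after its value was seen. Within the tumours with cabozantinib, Combination minus Cabozantinib, 1 gene passed (0.00585%), the immunoglobulin gene Igkv14-111. At an unadjusted p under 0.05 the same limma fits gave 3278 and 3853 genes, against 5700 for the average. The SE of the average is the residual SD times 0.508, against 0.764 without and 0.671 with cabozantinib. The strata share no tumour. Over the 17097 genes their differences had a Pearson r of 0.803 and a Spearman rho of 0.709, a description over genes measured on arrays normalised together, and 74.1% of genes had the same sign. Of the genes called in the average, 1422 of the 1424 that rose and all 1651 that fell had the same sign in both strata, which the average itself favours, and 825 and 933 also had an unadjusted p under 0.05 in each stratum.

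**Figure D1:**
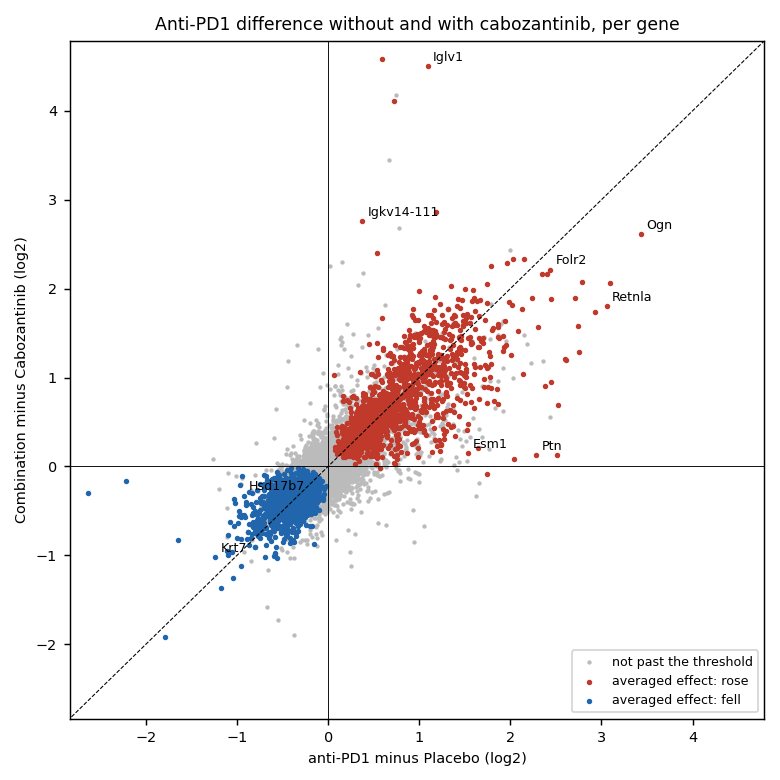
Each point is 1 of 17097 genes, with AntiPD1 minus Placebo on the x axis and Combination minus Cabozantinib on the y axis (both log2), coloured by whether the averaged effect rose (red, 1424), fell (blue, 1651) or did not pass (grey). Most coloured genes lie along the dashed line of equal differences, with immunoglobulin genes above it and Esm1 and Ptn near 0 on the y axis.

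The interaction, which asks whether the antibody difference changed with cabozantinib, passed for 0 genes in limma's fit (440 at an unadjusted p under 0.05, smallest adjusted p = 0.9997). It is the least precise of the contrasts, with an SE of 1.02 times the residual SD. For 78 genes all 7 antibody tumours lay above all 9 others (0.456% of those tested), 77 of them called, and for 87 genes all lay below (0.509%), 84 of them called. Within the strata, the 3 AntiPD1 tumours were all above the 4 Placebo tumours for 9.22% of genes and all below for 12.3%. The 4 Combination tumours were all above the 5 Cabozantinib tumours for 2.05% and all below for 3.05%. Both held for 153 genes above (0.895%) and 191 below (1.12%).

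The number of calls depended on single tumours. Without AntiPD1 replicate 2, 602 genes passed. Without Combination replicate 2 the count was 1506, without Placebo replicate 2 it was 1741, without AntiPD1 replicate 1 it was 1798 and without Placebo replicate 4 it was 1846. AntiPD1 replicate 2, Cabozantinib replicate 4 and Combination replicate 4 held high skeletal muscle signal, with mean centred scores over 21 muscle genes of 4.03, 3.62 and 4.91, where Cabozantinib replicate 3 had 1.64 and the others at most 0.62. Without those 3 tumours 1613 genes passed. Counts of list members are followed by the count without AntiPD1 replicate 2, which for each list was the lowest number of rises over the 16 fits that each left out 1 tumour. The shares of all genes to set beside the counts of members are 8.33% for rises and 9.66% for falls.

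Y-linked genes moved with the antibody and are given here because they bear on every result that follows. The hosts were male, and the labels do not say whether Hepa1-6 cells carry a Y chromosome. Kdm5d, a Y-linked histone demethylase, had log2 signals of 5.96, 5.59, 6.00 and 5.21 in the Placebo tumours and 6.36, 6.62 and 6.61 in the AntiPD1 tumours. In the Cabozantinib tumours it had 5.20, 5.22, 5.94, 5.95 and 5.32, and in the Combination tumours 6.30, 6.63, 6.17 and 6.51. All 7 antibody tumours were above all 9 others. The averaged difference was 0.86 ± 0.15 (adjusted p = 0.0101). Eif2s3y, a Y-linked translation factor, rose by 1.23 ± 0.26 (adjusted p = 0.0134), again without overlap, and Uty rose by 0.87 ± 0.24 (adjusted p = 0.0255), with 5 of 7 tumours above all others. All 3 measured Y-linked genes of 4 listed rose (2 without AntiPD1 replicate 2).

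The mean centred Y-linked score was -0.39 ± 0.50 (SD, n = 4) in Placebo, 0.58 ± 0.17 (n = 3) in AntiPD1, -0.47 ± 0.52 (n = 5) in Cabozantinib and 0.54 ± 0.33 (n = 4) in Combination. With this score as a covariate in limma, 0 genes passed (998 at an unadjusted p under 0.05, smallest adjusted p = 0.373), and the median SE went from 0.08 to 0.12. Because the score itself differed between the groups, that fit takes away whatever part of a difference runs in parallel with it. The median difference of the 1424 genes that had risen became 0.06, with 910 still positive, and that of the 1651 that had fallen became -0.11, with 1404 still negative. The part of the Y-linked difference in the gene changes below was not tested. In bulk tumour RNA, fewer cells of a type and less RNA per cell cannot be told apart.

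**Figure D2:**
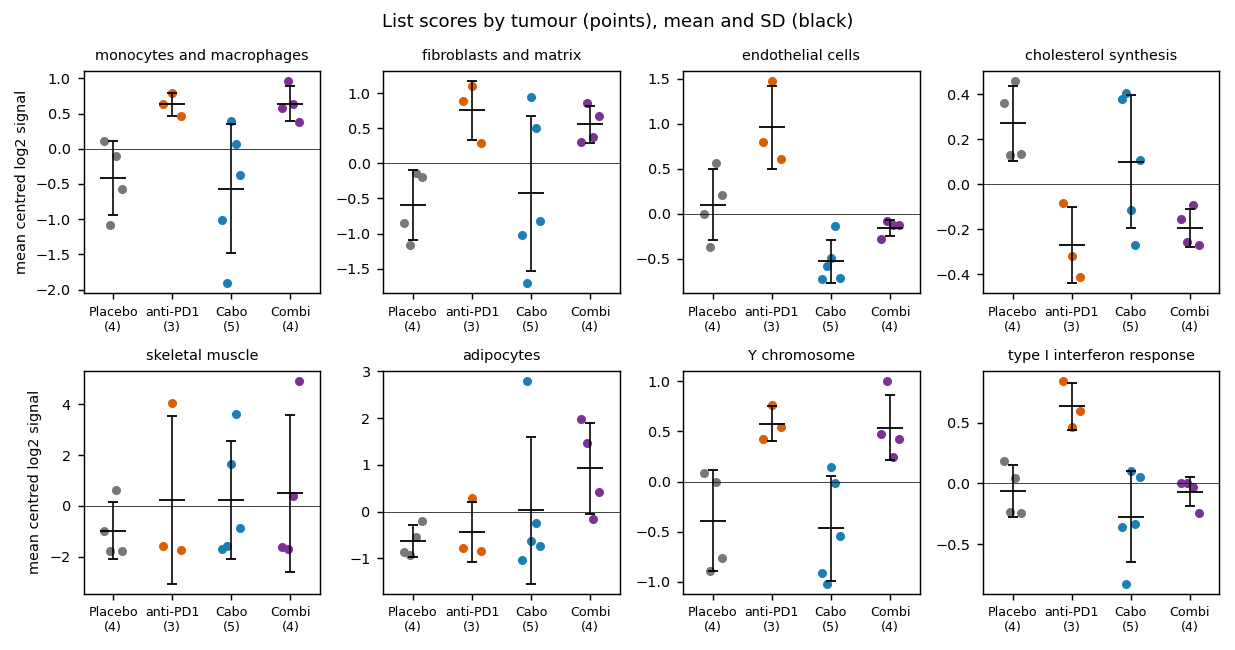
Each point is 1 tumour, with the mean of its centred log2 signal over a gene list on the y axis and the group, with its number of tumours, on the x axis; black bars are the group mean and SD. The 7 antibody tumours lie at or above 0.250 on the Y-linked score and the 9 others at or below 0.149, while high skeletal muscle scores occur in single tumours of 3 groups.

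Most macrophage genes rose. Of 20 measured genes of monocytes and macrophages 17 rose and 0 fell (3 rose without AntiPD1 replicate 2), with a median of 1.14 against -0.03 over all genes. The median was 1.01 without and 1.24 with cabozantinib. Adgre1, which encodes the macrophage surface marker F4/80, ran from 9.69 to 10.6 (median 10.2) in the antibody tumours and from 6.52 to 9.86 (median 8.44) in the others. It rose by 1.75 ± 0.38, a 3.36-fold change (adjusted p = 0.0140). Fcgr1, the high-affinity Fc receptor for IgG, rose by 1.67 ± 0.38 (adjusted p = 0.0150), and Msr1, a scavenger receptor, by 1.13 ± 0.25 (adjusted p = 0.0142). Itgam, the CD11b integrin chain of myeloid cells, rose by 1.63 ± 0.41 (adjusted p = 0.0194) but lost its call without AntiPD1 replicate 2. With the Y-linked covariate the list's median was -0.14, without AntiPD1 replicate 2 it was 1.08, and without the 3 muscle-rich tumours it was 1.20.

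Genes of alternatively activated macrophages rose with them. Of 18 measured, 12 rose and 0 fell (5 rose without AntiPD1 replicate 2), with a median of 1.13, and with the Y-linked covariate it was 0.35. Folr2, the folate receptor beta of tissue-resident macrophages, had 5.89, 5.88, 6.20 and 7.93 in Placebo and 9.18, 8.84 and 8.71 in AntiPD1. In Cabozantinib it had 7.34, 4.96, 8.33, 7.12 and 6.49, and in Combination 8.97, 9.56, 9.35 and 8.36. The lowest antibody tumour, Combination replicate 4, lay just above the highest other tumour, Cabozantinib replicate 3, so the 2 sets did not overlap. Folr2 rose by 2.32 ± 0.42, or 5.01-fold (adjusted p = 0.0103), by 2.44 without and 2.21 with cabozantinib. Stab1, a scavenger receptor that clears modified proteins, rose by 1.49 ± 0.24 (adjusted p = 0.00995), with all 7 tumours above the 9.

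Retnla, which encodes the secreted protein RELM-alpha that interleukin 4 induces in mouse macrophages, had 8.45, 6.80, 7.81 and 8.96 in Placebo and 11.29, 11.49 and 10.40 in AntiPD1. Cabozantinib tumours gave 10.15, 8.46, 11.85, 9.86 and 8.91, and Combination tumours 11.69, 11.47, 12.18 and 11.25. The AntiPD1 and Placebo tumours did not overlap, but Cabozantinib replicate 3 was above all antibody tumours except Combination replicate 3. The averaged rise was 2.43 ± 0.44, or 5.39-fold (adjusted p = 0.0103). Mrc1, the mannose receptor, rose by 1.49 ± 0.33 (adjusted p = 0.0146). Arg1, which hydrolyses arginine in the liver's urea cycle and in alternatively activated macrophages, rose by 0.99 ± 0.25 (adjusted p = 0.0202). Igf1, a growth factor made by macrophages and stromal cells, rose by 2.18 ± 0.38 (adjusted p = 0.0101), with 6 of 7 tumours above all 9.

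Of 17 measured genes of lipid-handling macrophages 10 rose and 0 fell (2 rose without AntiPD1 replicate 2), with a median of 0.62. Trem2, a lipid-sensing receptor of tumour-associated macrophages, ran from 8.27 to 10.2 (median 8.75) with the antibody and from 4.45 to 8.93 (median 6.95) without it. Only Combination replicates 2 and 3 exceeded the highest other tumour, Cabozantinib replicate 3. Trem2 rose by 2.26 ± 0.48 (adjusted p = 0.0137), with close values of 2.35 without and 2.17 with cabozantinib. Abcg1, which exports cholesterol from macrophages, rose by 1.44 ± 0.32 (adjusted p = 0.0146), and Lipa, the lysosomal acid lipase, by 0.97 ± 0.21 (adjusted p = 0.0137).

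The chemokines that draw monocytes and T cells were higher, and so were receptors through which myeloid cells sense complement and prostaglandin. Of 19 chemokine genes 10 rose and 0 fell (2 rose without AntiPD1 replicate 2), with a median of 0.91, and with the Y-linked covariate it was -0.29. Ccl12, a mouse ligand of the monocyte receptor CCR2, had 8.18, 6.89, 8.49 and 8.02 in Placebo and 9.81, 9.32 and 9.36 in AntiPD1. Cabozantinib tumours gave 8.55, 7.63, 8.84, 7.90 and 8.40, and Combination tumours 8.90, 9.73, 9.10 and 9.47. All 7 antibody tumours lay above the 9 others, by a narrow gap between Combination replicate 1 and Cabozantinib replicate 3. Ccl12 rose by 1.32 ± 0.23 (adjusted p = 0.0101). Ccl7, another monocyte attractant, rose by 1.90 ± 0.44 (adjusted p = 0.0156) and Ccl8 by 1.27 ± 0.30 (adjusted p = 0.0158). Ccl22, which dendritic cells and macrophages release to attract regulatory T cells, rose by 0.85 ± 0.21 (adjusted p = 0.0170).

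Of 14 complement genes 7 rose and 0 fell (2 rose without AntiPD1 replicate 2), with a median of 0.75. C5ar1, the receptor for the anaphylatoxin C5a, had 6.40, 5.33, 6.86 and 6.37 in Placebo and 8.12, 7.93 and 7.90 in AntiPD1. Its values were 6.17, 5.12, 7.22, 7.29 and 6.33 in Cabozantinib and 8.19, 8.99, 8.15 and 7.73 in Combination. The antibody tumours did not overlap the others in either stratum or over both. C5ar1 rose by 1.79 ± 0.31, or 3.46-fold (adjusted p = 0.0101). C3ar1, the C3a receptor, rose by 1.75 ± 0.39 (adjusted p = 0.0146), and Cfp, properdin, which stabilises the alternative pathway's convertase, by 1.50 ± 0.34 (adjusted p = 0.0147), with all 7 tumours above the 9. Of 15 genes of prostaglandin synthesis and reception 4 rose and 0 fell (3 without AntiPD1 replicate 2), with a median of 0.31. Among them were the prostaglandin E2 receptors Ptger4, at 1.54 ± 0.26 (adjusted p = 0.0101) and without overlap, and Ptger2, at 1.53 ± 0.34 (adjusted p = 0.0146). Tbxas1, thromboxane synthase, rose by 1.36 ± 0.28 (adjusted p = 0.0127).

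**Figure D3:**
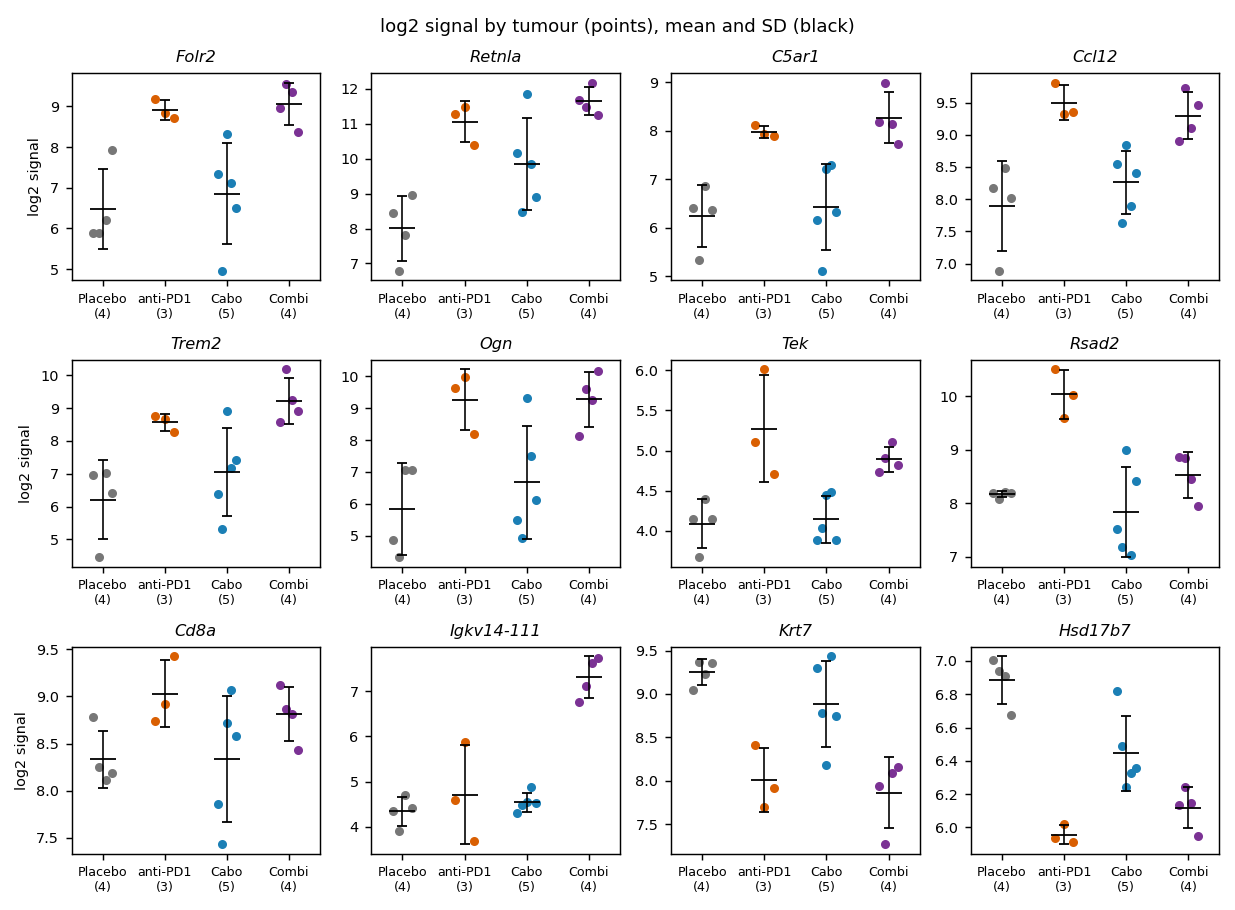
Each point is 1 tumour's log2 signal (y axis) by group (x axis, number of tumours in parentheses; Cabo is Cabozantinib and Combi is Combination), with the mean and SD in black. In the panels of Folr2, C5ar1, Ccl12 and Tek all 7 antibody tumours lie above the 9 others, Cd8a overlaps between groups, and Igkv14-111 stands high in the 4 Combination tumours, at 6.75 to 7.74.

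Of the antibody's target and its 2 ligands, PD-L2 passed the test. Pdcd1, which encodes PD-1, had 7.43, 7.24, 6.79 and 6.95 in Placebo, 7.54, 7.42 and 8.08 in AntiPD1, 6.42, 5.84, 7.44, 7.72 and 7.41 in Cabozantinib and 8.27, 7.49, 7.12 and 7.16 in Combination. The groups overlapped, and the averaged difference of 0.56 ± 0.27 did not pass (adjusted p = 0.152). J43 binds the protein, so the transcript is not a check of blockade. Cd274, which encodes PD-L1, differed by 0.28 ± 0.16 (adjusted p = 0.239). Pdcd1lg2, which encodes PD-L2, rose by 0.56 ± 0.19 (adjusted p = 0.0495), a call that was lost when AntiPD1 replicate 2 was left out and held in 3 of the 16 fits that left out 1 tumour.

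Of 16 other checkpoint receptors and ligands 4 rose and 2 fell (1 rose and 0 fell without AntiPD1 replicate 2), with a median of 0.59. Cd86, the B7 ligand of CD28 and CTLA-4 on antigen-presenting cells, rose by 1.41 ± 0.30 (adjusted p = 0.0137), with 6 of 7 tumours above all 9. Vsir, which encodes the inhibitory protein VISTA of myeloid cells, rose by 1.28 ± 0.32 (adjusted p = 0.0194). Pvr, the ligand of TIGIT that tumour cells carry, fell by 0.29 on the log2 scale (SE 0.07, adjusted p = 0.0178). Of 14 costimulatory genes 2 rose and 0 fell (0 rose without AntiPD1 replicate 2), against 8.33% of all genes that rose. The 2 were Tnfrsf14, the receptor HVEM, at 0.48 ± 0.14 (adjusted p = 0.0297), and Icosl, the ligand of ICOS, at 0.33 ± 0.11 (adjusted p = 0.0495). Tnfrsf9, the T cell activation marker 4-1BB, differed by 0.38 ± 0.26 (adjusted p = 0.335).

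T cell genes were higher in value throughout the list, but few passed. Of 14 measured of 21 listed, 2 rose and 0 fell (0 rose without AntiPD1 replicate 2), all 14 differences were positive and the median was 0.59. The share that passed was near the 8.33% of all genes that rose. Cd8a, the CD8 alpha chain of cytotoxic T cells, had 8.78, 8.25, 8.11 and 8.19 in Placebo and 8.74, 8.92 and 9.42 in AntiPD1. It had 7.86, 7.43, 8.72, 9.07 and 8.58 in Cabozantinib and 9.13, 8.87, 8.81 and 8.43 in Combination, so the groups overlapped in both strata. The difference was 0.59 ± 0.22 (adjusted p = 0.0699), and that of Cd3e, a chain of the T cell receptor complex, 0.57 ± 0.20 (adjusted p = 0.0587). Cd5, which tempers receptor signalling, rose by 1.17 ± 0.37 (adjusted p = 0.0410), and Lat, an adaptor of T cell receptor signalling, by 0.61 ± 0.20 (adjusted p = 0.0434).

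Of 18 cytotoxic and natural killer genes 3 rose and 0 fell (1 rose without AntiPD1 replicate 2), with all 18 positive and a median of 0.56. Over all genes 8.33% rose. Gzmk, a granzyme of effector memory CD8 T cells, ran from 7.14 to 8.88 (median 8.16) with the antibody and from 6.26 to 7.88 (median 7.33) without. It rose by 0.91 ± 0.21 (adjusted p = 0.0152) and kept its call in all 16 fits that left out 1 tumour. Eomes, a transcription factor of those cells, rose by 0.53 ± 0.15 (adjusted p = 0.0255), and Fasl, the ligand of the death receptor Fas, by 0.75 ± 0.25 (adjusted p = 0.0495). The effectors Gzmb, at 0.44 ± 0.34 (adjusted p = 0.395), Prf1, at 0.51 ± 0.28 (adjusted p = 0.217), and Ifng, at 0.62 ± 0.30 (adjusted p = 0.166), did not pass. Cxcl9, which interferon gamma induces, differed by 0.31 ± 0.16 (adjusted p = 0.177), and its signal was high in all tumours, from 11.3 to 12.6.

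None of 23 genes of interferon gamma targets and MHC class II passed in limma's fit (7 at an unadjusted p under 0.05), with a median of 0.15. H2-DMa, at 0.80 ± 0.30 (adjusted p = 0.0722), and H2-Eb1, at 0.54 ± 0.20 (adjusted p = 0.0743), which serve peptide loading and presentation, had the smallest p among those above 0. None of 8 regulatory T cell genes passed in limma's fit either (2 at an unadjusted p under 0.05, median 0.15). Foxp3, the defining transcription factor, differed by -0.06 ± 0.11 (adjusted p = 0.737), and Ctla4 by 0.82 ± 0.35 (adjusted p = 0.108). Of the 8 genes, 3 had a mean signal above the lowest array median, 4.92. Foxp3, with a mean of 4.73, lay below it, which limits what its difference can show. Of 13 dendritic cell genes 4 rose and 0 fell (0 rose without AntiPD1 replicate 2). One was Cd83, a maturation marker, at 0.68 ± 0.18 (adjusted p = 0.0226).

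Some type I interferon genes rose. Of 23 measured, 10 rose and 0 fell (2 rose without AntiPD1 replicate 2), with medians of 0.36 averaged, 0.49 without and 0.20 with cabozantinib. Rsad2, which encodes the antiviral enzyme viperin, had 8.18, 8.09, 8.21 and 8.19 in Placebo and 10.50, 9.59 and 10.02 in AntiPD1. It had 7.52, 7.18, 9.0, 7.04 and 8.41 in Cabozantinib and 8.87, 8.84, 8.46 and 7.95 in Combination. The first 2 groups were apart by more than their spread and the last 2 overlapped. Rsad2 rose by 1.28 ± 0.26 (adjusted p = 0.0123), by 1.87 without and 0.70 with cabozantinib, a gap that the interaction did not pass (adjusted p = 0.9997). Cmpk2, a mitochondrial nucleotide kinase, rose by 0.72 ± 0.19 (adjusted p = 0.0218), and Dhx58, an RNA sensor of the RIG-I family, by 0.67 ± 0.16 (adjusted p = 0.0169).

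For a sequence view of this list, the interferon-stimulated response element is the promoter motif that interferon's transcription factor complex binds. Windows of 250 bases before to 50 after the start sites, from RefSeq on GRCm38.p6, were searched on both strands for GAAANNGAAA. It was found for 3.59% of 13605 tested genes with a window, and for 7 of the 14 list members with one. Of these 7, Ifit1, Ifit3, Rsad2 and Ifih1 rose, while Oas3 (0.24, adjusted p = 0.0968), Ddx58 (-0.06, adjusted p = 0.644) and Stat2 (0.30, adjusted p = 0.259) did not pass. Among risen members with a window the motif was thus in 4 of 7, which describes the letters and not binding. Stretches of 120 bases around the matches that lie before the start sites are shown, with the matches in capitals. The matches shown lie on the other strand, so each reads as the motif's reverse complement.
Ifit1 (chr19:34640730-34640849, plus strand): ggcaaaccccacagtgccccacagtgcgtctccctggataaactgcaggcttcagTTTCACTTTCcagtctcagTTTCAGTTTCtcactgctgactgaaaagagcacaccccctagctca
Ifit3 (chr19:34583318-34583437, plus strand): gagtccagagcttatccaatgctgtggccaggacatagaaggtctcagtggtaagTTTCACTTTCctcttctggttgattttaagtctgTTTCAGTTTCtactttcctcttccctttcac
Rsad2 (chr12:26456508-26456627, minus strand): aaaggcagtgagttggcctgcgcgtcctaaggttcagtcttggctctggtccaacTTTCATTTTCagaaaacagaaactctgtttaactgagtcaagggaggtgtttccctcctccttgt
Ifit1 and Ifit3 each held 2 matches and Rsad2 held 1, whose first base lay 120 bases before the start site. Ifit1 rose by 0.92 ± 0.25 (adjusted p = 0.0243) and Ifit3, which encodes a related antiviral protein, by 0.87 ± 0.27 (adjusted p = 0.0401). Ifih1, the RNA sensor MDA5, rose by 0.38 ± 0.12 (adjusted p = 0.0434), and its match lay after the start site. Ifit1, Ifit3, Ifih1, Oas3, Ddx58 and Stat2 are named for the motif, outside the rule for named genes and after their values were seen.

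Neutrophil genes had medians of 0.72 without and 0.07 with cabozantinib, and the interaction passed for 0 of them. Of 24 measured, 5 rose and 0 fell (3 rose without AntiPD1 replicate 2). Clec4d, a C-type lectin of myeloid cells, rose by 1.91 ± 0.43 (adjusted p = 0.0150), Mmp8, the neutrophil collagenase, by 1.15 ± 0.27 (adjusted p = 0.0167), and Csf3r, the G-CSF receptor, by 0.88 ± 0.20 (adjusted p = 0.0154). The alarmins S100a8, at 0.73 ± 0.39 (adjusted p = 0.209), and S100a9, at 0.64 ± 0.42 (adjusted p = 0.311), did not pass. S100a8 differed by 1.66 without and -0.19 with cabozantinib, and the interaction did not pass. Of 12 genes for neutrophil-attracting signals 2 rose and 0 fell (0 rose without AntiPD1 replicate 2), against 8.33% of all genes that rose. Tnf rose by 0.41 ± 0.12 (adjusted p = 0.0319) and Ccl4, an attractant of T cells and monocytes, by 0.68 ± 0.21 (adjusted p = 0.0390).

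Immunoglobulin genes were among the largest rises, and their values came chiefly from the Combination tumours. Of 12 measured plasma cell and immunoglobulin genes of 22 listed, 4 rose and 0 fell (2 rose without AntiPD1 replicate 2), with medians of 0.24 without and 0.76 with cabozantinib. Igkv14-111, a kappa light chain variable gene, had 4.35, 3.92, 4.70 and 4.42 in Placebo, 4.60, 5.87 and 3.68 in AntiPD1, 4.3, 4.49, 4.54, 4.88 and 4.53 in Cabozantinib and 6.75, 7.11, 7.63 and 7.74 in Combination. All 4 Combination tumours were above all 12 others, while the AntiPD1 tumours overlapped the Placebo tumours and held both extremes of that stratum. The averaged rise of 1.56 ± 0.25 (adjusted p = 0.00995) thus combined 0.37 ± 0.38 without cabozantinib (adjusted p = 0.624) and 2.76 ± 0.33 with it (adjusted p = 0.0129). The difference of these differences was 2.38 ± 0.51, which did not pass over all genes (unadjusted p = 0.000306, adjusted p = 0.9997).

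Iglv1, a lambda variable gene, rose by 2.80 ± 0.89 (adjusted p = 0.0424), with 1.09 without and 4.50 with cabozantinib. Igkv15-103 rose by 2.59 ± 0.71 (adjusted p = 0.0255), with 0.59 and 4.59, and Igk-V21 by 2.41 ± 0.60 (adjusted p = 0.0192), with 0.72 and 4.11. The call for Iglv1 held in 6 of the 16 fits that left out 1 tumour and was lost without AntiPD1 replicate 2. Probe sets for variable genes can share sequence, so these genes may not be separate measurements. Jchain, which joins IgA and IgM units, differed by 2.46 ± 0.92 (adjusted p = 0.0743). Of 15 B cell genes 3 rose and 0 fell (0 rose without AntiPD1 replicate 2). Among them were Cd22, an inhibitory B cell receptor, at 1.31 ± 0.35 (adjusted p = 0.0226), and Ms4a1, which encodes CD20, at 1.13 ± 0.35 (adjusted p = 0.0375). Of the 15 genes, 4 had a mean signal above the lowest array median, 4.92. Ms4a1, with a mean of 4.90, lay just below it.

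Fibroblast and matrix genes held the largest averaged rise of those named. Of 29 measured, 16 rose and 0 fell, but 1 rose without AntiPD1 replicate 2, with a median of 1.03, and with the Y-linked covariate it was -0.16. The median was 0.99 without AntiPD1 replicate 2, where fewer genes passed, and 1.16 without the 3 muscle-rich tumours. Ogn, osteoglycin, a small leucine-rich proteoglycan of connective tissue, had 4.88, 4.32, 7.07 and 7.06 in Placebo and 9.62, 9.99 and 8.20 in AntiPD1. It had 5.48, 4.93, 9.33, 7.51 and 6.11 in Cabozantinib and 8.12, 9.61, 9.25 and 10.16 in Combination. The stratum without cabozantinib did not overlap, while Cabozantinib replicate 3 lay within the range of the Combination tumours. Ogn rose by 3.02 ± 0.64, or 8.13-fold (adjusted p = 0.0132), and passed in all 16 fits that left out 1 tumour.

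Other genes of the stroma followed with wide errors. Itgbl1, an integrin beta-like secreted protein, rose by 2.58 ± 0.58 (adjusted p = 0.0148), Sfrp2, a secreted Wnt modulator, by 2.43 ± 0.70 (adjusted p = 0.0297), and Dpt, dermatopontin of the dermal matrix, by 2.33 ± 0.69 (adjusted p = 0.0337). Efemp1, a fibulin, rose by 2.30 ± 0.66 (adjusted p = 0.0293), although none of the 7 tumours was above the highest of the 9. Col14a1 rose by 1.55 ± 0.41 (adjusted p = 0.0228), Col6a2 by 1.20 ± 0.34 (adjusted p = 0.0277) and Col1a1, the main fibrillar collagen chain, by 1.48 ± 0.44 (adjusted p = 0.0332). The skin lies next to these tumours. Of 10 keratinocyte genes 0 rose and 2 fell, Dsp and Perp (2 fell without AntiPD1 replicate 2), and the other 8 did not pass. Only 3 of the 10 had a mean signal above the lowest array median, 4.92, which limits what this list can show. Of 12 adipocyte genes 0 passed in limma's fit (0 at an unadjusted p under 0.05), with a median of 0.39. Adipoq, the hormone adiponectin, differed by 2.06 ± 1.13 (adjusted p = 0.220) with values from 3.83 to 11.6 over the tumours, and Fabp4 by 1.04 ± 0.51 (adjusted p = 0.171). The adipocyte score was highest in Cabozantinib replicate 2, at 2.79, and averaged 0.93 ± 0.97 (SD, n = 4) in the Combination tumours and -0.44 ± 0.64 (n = 3) in AntiPD1. Its part in the stromal rises was not tested.

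About as many endothelial genes rose as did not pass. Of 26 measured, 13 rose and 0 fell (4 rose without AntiPD1 replicate 2), with medians of 0.71 averaged, 0.86 without and 0.30 with cabozantinib. Tek, the angiopoietin receptor TIE2, had 4.15, 3.67, 4.39 and 4.15 in Placebo, 5.1, 6.01 and 4.71 in AntiPD1, 3.88, 4.03, 4.44, 4.48 and 3.89 in Cabozantinib and 4.73, 4.91, 5.1 and 4.82 in Combination. All 7 antibody tumours were above the 9 others, and the rise was 0.96 ± 0.17 (adjusted p = 0.0101). Vwf, von Willebrand factor, rose by 1.21 ± 0.22 (adjusted p = 0.0103), with 1.32 without and 1.10 with cabozantinib. Cdh5, the endothelial cadherin, rose by 0.73 ± 0.15 (adjusted p = 0.0128), with 1.18 without and 0.29 with it. Kdr, VEGF receptor 2, a target of cabozantinib, differed by 0.42 ± 0.22 (adjusted p = 0.205).

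Of 10 tip cell genes 1 rose and 0 fell (1 rose without AntiPD1 replicate 2), a share near the 8.33% of all genes that rose. The gene was Esm1, endocan, a secreted protein of sprouting endothelium, with 6.11, 6.85, 6.70 and 7.25 in Placebo and 7.82, 8.31 and 8.64 in AntiPD1. In Cabozantinib it had 4.54, 4.89, 4.47, 4.78 and 4.62, and in Combination 5.11, 4.45, 4.90 and 4.78. Both groups with cabozantinib were near the array medians and overlapped. The averaged rise of 0.84 ± 0.16 (adjusted p = 0.0108) came from 1.53 ± 0.24 without cabozantinib (adjusted p = 0.0469) and 0.15 ± 0.21 with it (adjusted p = 0.719), and the interaction did not pass. Of 11 pericyte and smooth muscle genes 1 fell and 0 rose (1 fell without AntiPD1 replicate 2), a share near the 9.66% of all genes that fell. Kcnj8, a potassium channel of pericytes, fell by 0.46 on the log2 scale (SE 0.10, adjusted p = 0.0125). Of 8 red cell and platelet genes 3 rose and 0 fell (1 rose without AntiPD1 replicate 2), against 8.33% of all genes. Hba-a1, at 1.14 ± 0.35 (adjusted p = 0.0372), and Hbb-b2, at 1.15 ± 0.33 (adjusted p = 0.0312), encode globin chains that can share probes with their copies. Both lost their calls without AntiPD1 replicate 2, and they held in 6 and 10 of the 16 fits. Pf4, a platelet chemokine that macrophages also express, rose by 1.47 ± 0.31 (adjusted p = 0.0135).

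The genes with the largest falls included some that epithelial cells express, for which there was no list to count. Not all of the largest falls are described. Krt7, the keratin of simple and biliary epithelium, had 9.05, 9.37, 9.23 and 9.36 in Placebo and 8.42, 7.69 and 7.91 in AntiPD1. It had 9.29, 8.78, 8.18, 9.43 and 8.74 in Cabozantinib and 7.94, 7.27, 8.09 and 8.16 in Combination. Within each stratum the groups did not overlap, and AntiPD1 replicate 1 was the single antibody tumour above Cabozantinib replicate 3. Krt7 fell by 1.13 on the log2 scale (SE 0.18, adjusted p = 0.00995), a 2.19-fold decrease. Pkhd1, fibrocystin of ductal cilia, had a difference of -1.03 ± 0.17 (adjusted p = 0.0101), and Cdh16, a kidney-type cadherin, of -1.01 ± 0.24 (adjusted p = 0.0164). From the lists, the adhesion protein gene Epcam had -0.52 ± 0.12 (adjusted p = 0.0160), the desmosomal gene Dsp -0.43 ± 0.08 (adjusted p = 0.0110) and Perp, a desmosomal p53 target, -0.57 ± 0.12 (adjusted p = 0.0128).

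Of 18 liver transcription factors and oncofetal genes 6 fell and 2 rose (0 passed without AntiPD1 replicate 2), with a median of -0.39, and with the Y-linked covariate it was 0.05. Prox1, a transcription factor of hepatoblasts, fell by 0.80 on the log2 scale (SE 0.19, adjusted p = 0.0171), and Igf2bp3, an oncofetal RNA-binding protein, by 0.37 (SE 0.10, adjusted p = 0.0226). Of 27 genes for hepatocyte plasma proteins and enzymes 2 rose and 2 fell (0 passed without AntiPD1 replicate 2), against 18% of all genes called. The rises were Arg1 and F10, coagulation factor X, which rose by 1.13 ± 0.32 (adjusted p = 0.0297), and both are also expressed by mouse macrophages. Alb differed by -0.11 ± 0.04 (adjusted p = 0.0902). Outside the list, Serpina6, the corticosteroid-binding globulin, had the largest averaged fall of those named, -1.86 ± 0.58 (adjusted p = 0.0414), from a median of 7.16 over the 9 tumours to 4.72 over the 7. The call for Serpina6 held in 3 of the 16 fits that left out 1 tumour, and with the Y-linked covariate its difference was 0.10. Bche, butyrylcholinesterase, had -1.27 ± 0.32 (adjusted p = 0.0192) and Serpind1, heparin cofactor II, -1.15 ± 0.33 (adjusted p = 0.0312).

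Most cholesterol synthesis genes fell. Of 19 measured of 25 listed, 12 fell and 0 rose (4 fell without AntiPD1 replicate 2), against 9.66% of all genes, with a median of -0.45. The median was -0.55 without and -0.36 with cabozantinib, and with the Y-linked covariate it was -0.20. Hsd17b7, which reduces a keto intermediate of cholesterol synthesis, had 7.01, 6.94, 6.91 and 6.68 in Placebo and 5.94, 6.02 and 5.91 in AntiPD1. It had 6.82, 6.49, 6.24, 6.33 and 6.36 in Cabozantinib and 6.13, 6.24, 6.15 and 5.95 in Combination. The AntiPD1 tumours were well below Placebo, and 6 of 7 antibody tumours were below all 9 others. Hsd17b7 fell by 0.63 on the log2 scale (SE 0.08, adjusted p = 0.00995), a 1.55-fold decrease, with -0.93 ± 0.12 without cabozantinib (adjusted p = 0.0331) and -0.33 ± 0.11 with it (adjusted p = 0.104). Lss, lanosterol synthase, fell by 0.74 (SE 0.14, adjusted p = 0.0108), and Sqle, squalene epoxidase, by 0.52 (SE 0.10, adjusted p = 0.0110). Of 13 fatty acid synthesis genes 2 fell and 0 rose (2 fell without AntiPD1 replicate 2), against 9.66% of all genes that fell. The 2 were the desaturases Fads2, at -0.81 ± 0.17 (adjusted p = 0.0126), and Fads1, at -0.42 ± 0.09 (adjusted p = 0.0132).

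The sterol regulatory element is the promoter motif bound by SREBP, the transcription factor that drives this pathway when sterols are low. A strict form, TCACNCCAC, was searched on both strands of the same windows. It was found for 1.5% of the 13605 genes, and for 1 of 15 list members with a window, Hmgcs1, the synthase of the pathway's first committed precursor. Hmgcs1 was among the 8 fallen members with a window. The stretch around its match is shown because it is the one match in the list, with the match in capitals.
Hmgcs1 (chr13:119690158-119690277, plus strand): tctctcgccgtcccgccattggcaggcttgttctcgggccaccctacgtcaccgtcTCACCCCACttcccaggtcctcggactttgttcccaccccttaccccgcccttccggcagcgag
Its first base lay 137 bases before the start site. Hmgcs1, named for the motif outside the rule for named genes, had a difference of -0.55 ± 0.14 (adjusted p = 0.0214). Its probe set was dim, from 5.07 to 5.66 with the antibody and from 5.24 to 6.46 without. A window without the motif says only that these letters are absent from it.

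**Figure D4:**
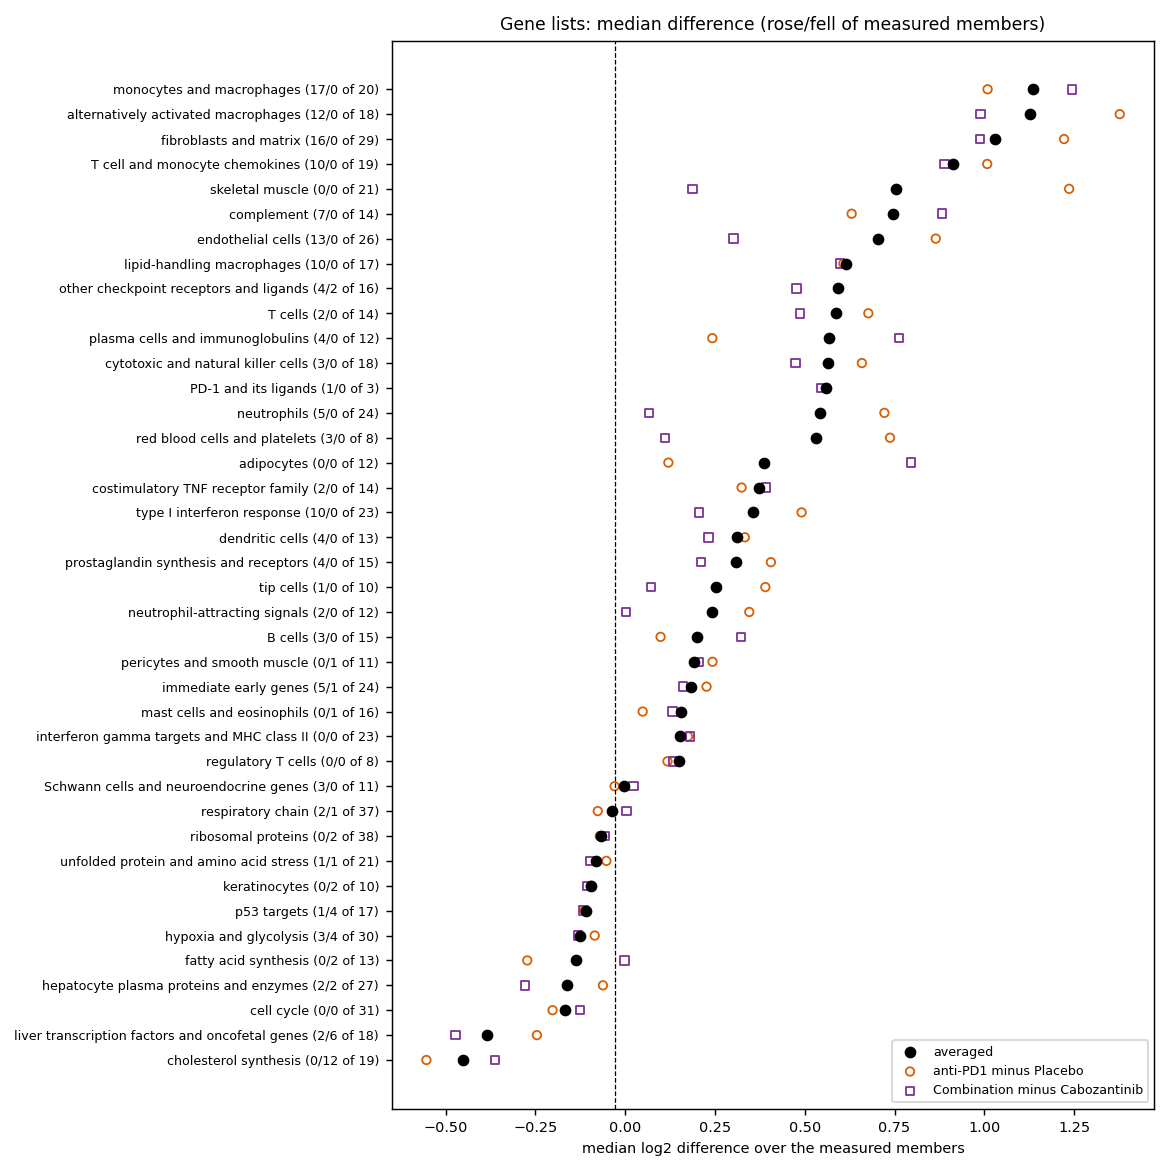
Each line is a gene list, with the median log2 difference over its measured members on the x axis for the averaged effect (black), AntiPD1 minus Placebo (orange circles) and Combination minus Cabozantinib (purple squares); the dashed line is the median over all genes, -0.03, and the counts in parentheses are members that rose and fell of those measured. Monocytes and macrophages (1.14), alternatively activated macrophages (1.13) and fibroblasts (1.03) lie at the top and cholesterol synthesis, at -0.45, at the bottom.

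Lists of general cell functions are set against the 18% of all genes called. None of 31 cell cycle genes passed in limma's fit (8 at an unadjusted p under 0.05), although 28 differences were negative (median -0.17), among them Cdk1, at -0.24 ± 0.09 (adjusted p = 0.0709), Ccne2, at -0.32 ± 0.13 (adjusted p = 0.0889), and Mki67, at -0.18 ± 0.09 (adjusted p = 0.157). Of 38 ribosomal protein genes 0 rose and 2 fell (0 fell without AntiPD1 replicate 2), Rps15, at -0.13 ± 0.04 (adjusted p = 0.0434), and Rpl8, at -0.12 ± 0.04 (adjusted p = 0.0476). Of 37 respiratory chain genes 2 rose and 1 fell (1 rose and 0 fell without AntiPD1 replicate 2). Sdhb, the iron-sulfur subunit of complex II, rose by 0.35 ± 0.07 (adjusted p = 0.0110), with the 7 antibody tumours at 10.53 to 10.83 above the 9 others at 10.18 to 10.52. Of 30 hypoxia and glycolysis genes 3 rose and 4 fell (0 rose and 1 fell without AntiPD1 replicate 2). Pfkfb4, at 0.92 ± 0.24 (adjusted p = 0.0213), and Pfkfb3, at 0.62 ± 0.14 (adjusted p = 0.0157), bifunctional regulators of glycolysis, were higher and both lost their calls without that tumour. The oxygen sensor Egln1 was lower, at -0.34 ± 0.08 (adjusted p = 0.0150), and passed in all 16 fits.

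Of 24 immediate early genes 5 rose and 1 fell (1 rose and 0 fell without AntiPD1 replicate 2). Jun rose by 0.59 ± 0.13 (adjusted p = 0.0139) and Dusp1, a phosphatase of MAP kinases, by 0.46 ± 0.13 (adjusted p = 0.0268), and Maff had -0.35 ± 0.09 (adjusted p = 0.0232). Of 17 p53 targets 1 rose and 4 fell (0 rose and 1 fell without AntiPD1 replicate 2), against 18% of all genes called. Sesn1, at 0.59 ± 0.13 (adjusted p = 0.0146), and Zmat3, at -0.43 ± 0.10 (adjusted p = 0.0143), both lost their calls without that tumour. Of 21 stress genes 1 rose and 1 fell (1 rose and 0 fell without AntiPD1 replicate 2). Sdf2l1, an endoplasmic reticulum chaperone partner, rose by 0.67 ± 0.13 (adjusted p = 0.0109), and Psat1, of serine synthesis, had -0.34 ± 0.11 (adjusted p = 0.0428). None of 21 skeletal muscle genes passed in limma's fit (0 at an unadjusted p under 0.05). Their median of 0.75 became -0.25 without AntiPD1 replicate 2 and -0.54 without the 3 muscle-rich tumours, and Ryr1, the muscle calcium release channel, differed by 0.92 ± 0.62 (adjusted p = 0.323).

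The genes with the smallest interaction p were Mirg, a noncoding RNA of the Dlk1-Dio3 region, Igkv14-111 and Ptn. Mirg and Ptn were dim, with means of 4.19 and 4.82 over the arrays, below the lowest array median of 4.92. Other probe sets of Ptn, with means of 4.74 and 4.63, had averaged differences of 0.53 and 0.07. Ptn, the growth factor pleiotrophin, had 4.03, 4.02, 4.63 and 4.80 in Placebo, 6.65, 6.70 and 6.61 in AntiPD1, 4.26, 4.16, 5.55, 3.98 and 3.85 in Cabozantinib and 4.06, 5.1, 4.40 and 4.39 in Combination. The 3 AntiPD1 tumours stood above all 13 others, which overlapped one another. The averaged rise of 1.21 ± 0.23 (adjusted p = 0.0109) was made of 2.28 ± 0.35 without (adjusted p = 0.0469) and 0.13 ± 0.30 with cabozantinib (adjusted p = 0.845), and the difference between them of -2.16 ± 0.46 did not pass (adjusted p = 0.9997). Chga, the neuroendocrine granule protein chromogranin A, showed the same order, with 1.24 ± 0.18 without (adjusted p = 0.0469) and 0.24 ± 0.16 with cabozantinib (adjusted p = 0.392). It was dim too, with a mean of 4.43. Ptn and Chga belong to the list of Schwann cell and neuroendocrine genes. Of its 11 measured, 3 rose and 0 fell (2 rose without AntiPD1 replicate 2), against 8.33% of all genes that rose. As a whole that list did not move, with 5 differences positive, 6 negative and a median of -0.003. In the other direction 2 falls among the largest were larger without cabozantinib, though the interaction did not pass for either. Adamdec1, a metalloprotease of macrophages, had an averaged difference of -1.47 ± 0.32 (adjusted p = 0.0140), with -2.64 without and -0.30 with it. Mcpt2, a mast cell protease, had -1.19 ± 0.38 (adjusted p = 0.0433), with -2.22 and -0.17, and it was the 1 gene called of 16 for mast cells and eosinophils (0 without AntiPD1 replicate 2). In the Combination tumours Mcpt2 lay at 3.94 to 4.59, below the lowest array median of 4.92. So low a signal limits what its difference with cabozantinib can show.

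**Figure D5:**
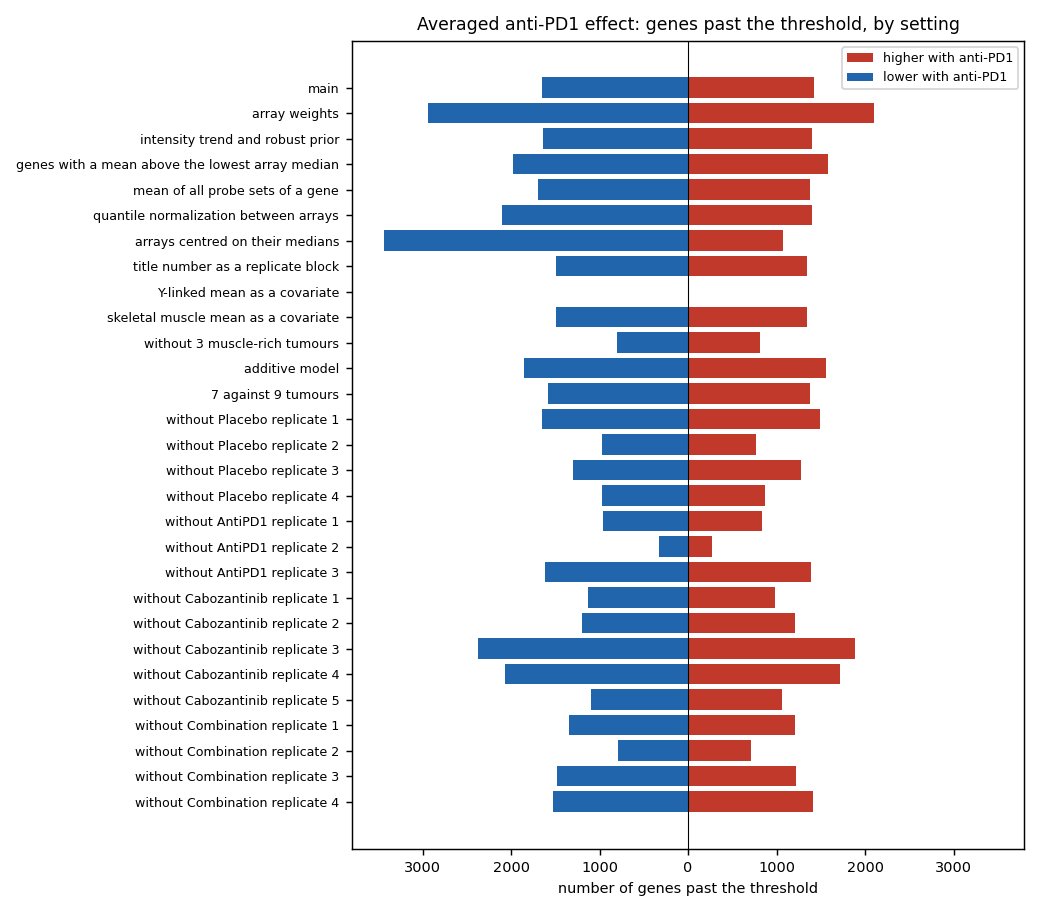
Each bar pair gives the number of genes higher (right, red) and lower (left, blue) with the antibody past the threshold in the averaged effect, for the chosen fit at the top and each alternative under it. The count is 0 with the Y-linked covariate, 602 without AntiPD1 replicate 2 and 5037 with array weights.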

How the data were processed

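The authors deposited 1 table of log2 signal for 45141 probe sets on 16 arrays. Per the labels' protocols, total RNA from fresh-frozen tumours (50 ng each) was profiled on the Affymetrix Mouse Genome 430 2.0 array. The submitters' processing notes list RMA and affy 1.62.0, with no role or setting for either. RMA, as generally used, fits each probe set over all arrays at once, so arrays are not fully independent. Groups follow the treatment label.

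Of 45037 probe sets other than 104 controls, 28898 had 1 gene symbol, 551 several and 15588 none in the platform annotation, which can be old. Each of 17097 genes was represented by its brightest probe set, on average over the arrays (7180 genes had several). Of 80 other probe sets of the named genes, 4 had the opposite sign, and 1 of these, of Prf1, had a mean above the lowest array median. limma 3.58.1 in R 4.3.3 fitted the 4 group means with eBayes, and contrasts were adjusted by Benjamini-Hochberg. Precision is limited by the number of arrays. The fit was tested on simulated data.

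The members, gene lists and alternatives were chosen with earlier results of these data known. The genes named were drawn from sets given by a rule, and not every gene of these sets is described. The first were the 15 largest rises and 15 largest falls past the threshold with a group mean above the lowest array median. Up to 3 members past the threshold came from each list. A list with none gave the 2 members with the smallest p on the side of its median. The 3 genes with the smallest interaction p and a fixed panel completed the sets. 131 genes were followed through the alternatives, and a gene outside the rule is named as such. Scores are means of gene-centred log2 signals. Array weights, an intensity trend with a robust prior, a filter on dim genes, averaged probe sets, quantile normalization, median centring, a replicate block, covariates, other models and leaving out tumours were tried. No coordinates were taken from the files, which name no genome build.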

Additional observations from a re-analysis of the deposited data

Results flagged for a closer look

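Of 429 sets of values from 1 group (4 or 5 tumours), over the 131 named genes, 7 scores and 5 array measures, 20 held a tumour far from the others of its group by Dixon's test, where chance gives about 1 in 20, or 21. AntiPD1, with 3 tumours, was not tested.

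Among Placebo tumours, replicate 1 was high in Pdcd1lg2 at 9.79 (others 8.77 to 8.80). Replicate 2 was low in Foxp3 at 4.54 (4.77 to 4.81) and in Ccl8 at 9.82 (11.4 to 11.6), and its array median of 4.92 was below the other 3 (5.03 to 5.05). Replicate 3 was high in S100a9 at 8.54 (7.18 to 7.40), and replicate 4 in Folr2 at 7.93 (5.88 to 6.20) and in Adipoq at 7.09 (4.23 to 4.38).

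Among Cabozantinib tumours, replicate 2 was low in Arg1 at 10.4 (11.66 to 12.14) and high in the adipocyte score at 2.79 (-1.03 to -0.24). Replicate 3 was low in Kcnj8 at 7.35 (7.86 to 7.98) and high in Ptn at 5.55 (3.85 to 4.26) and Mirg at 4.42 (4.09 to 4.16). Replicate 4 was high in Igkv15-103 at 8.53 (4.11 to 5.22) and Csf3r at 7.43 (6.09 to 6.45) and low in Hmgcs1 at 5.24 (5.88 to 6.08).

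Among Combination tumours, replicate 1 was high in Ccne2 at 7.46 (6.98 to 7.04) and replicate 2 in Dhx58 at 6.77 (6.22 to 6.29). Replicate 4 was low in Tnfrsf9 at 8.43 (9.36 to 9.55) and high in Mcpt2 at 4.59 (3.94 to 4.03) and in Ryr1 at 9.47 (5.54 to 6.08), a muscle gene.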

How the results depend on the processing

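The 3075 genes past the threshold in the averaged effect became 5037 with array weights, 1613 without the 3 muscle-rich tumours, 0 with the Y-linked covariate and 602 to 4258 when 1 tumour was left out, lowest without AntiPD1 replicate 2. The other 9 alternatives gave 2831 to 4513. The 5 genes without cabozantinib became 1822 with array weights, 1 with dim genes left out, 8 with averaged probe sets, 8 with quantile normalization, 10 with median centring, 1 with the replicate block, 0 with the Y-linked covariate, 12 with the muscle covariate, 70 when only those 2 groups were fitted and 0 to 30 when 1 tumour was left out. The 1 gene with cabozantinib became 1441 with array weights, 2 with an intensity trend, with dim genes left out or with quantile normalization, 4 with averaged probe sets, 71 with median centring, 0 with the Y-linked covariate, 28 with the muscle covariate, 37 without the 3 muscle-rich tumours and 0 to 1955 when 1 tumour was left out, highest without Cabozantinib replicate 3. The interaction gave 0 genes except 1 without AntiPD1 replicate 2 or replicate 3. The title number as a replicate block gave 2842 genes for the averaged effect. The labels do not give the meaning of that number, shared by tumours for 4 of 12 values, and the consensus correlation was -0.103.

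Of 107 named genes past the threshold, 48 passed in all 16 fits that left out 1 tumour, and 58 lost the call without AntiPD1 replicate 2. The gene left over, Ptger2, was at the threshold in that fit, with an adjusted p that rounds to 0.05 in limma. The 27 named genes whose sign changed did so with the Y-linked covariate, to Pdcd1 -0.11, Cd274 -0.11, Pdcd1lg2 -0.059, Vsir -0.22, Ctla4 -0.37, Tnfrsf9 -0.51, Cd8a -0.092, Gzmb -0.27, Prf1 -0.084, Ifng -0.25, Cxcl9 -0.30, Cd22 -0.19, Jchain -0.88, Clec4d -0.00904, Ccl4 -0.093, Dhx58 -0.020, H2-DMa -0.45, H2-Eb1 -0.29, Col1a1 -0.26, Col6a2 -0.18, Serpina6 0.10, Serpind1 0.064, F10 -0.19, Pfkfb4 -0.032, Maff 0.00302, Ryr1 -0.18 and Ifit3 -0.16. By construction that fit removes differences parallel to the score, whose own groups differed, and any other cause was not tested. Signal near or below the array median limits what dim genes such as Foxp3, Hmgcs1, Tek, Mirg, Ptn, Chga, Mcpt2 and Ms4a1 can show.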
